A study of Canis lupus familiaris with 13 samples.

Results

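Hyaluronan is a long, unbranched sugar polymer of the extracellular matrix. Hyaluronan synthases in the plasma membrane make it from nucleotide sugars. Secreted proteins such as TNFAIP6 and the inter-alpha-trypsin inhibitor heavy chains decorate and cross-link it. The proteoglycan VCAN and the link protein HAPLN1 anchor to it, CD44 is its main cell surface receptor, and hyaluronidases cut it. In connective tissue and in tumours of connective tissue it sets the hydration and stiffness of the matrix. Its turnover is commonly studied in connection with cell migration.

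The 10 genes described here are ITIH5, TNFAIP6, HAS1, HAS2, HAS3, HYAL1, HYAL2, CD44, VCAN and HAPLN1. Their members on the array are all 20 probe sets whose platform symbol is one of these genes, of 43035 probe sets in all. A probe set is a group of short probes designed for the transcripts of a gene, and 4 of the genes had a single one. The genes were chosen by family with the group differences of these tumours already known, and ITIH5 was chosen by its large difference. The metastatic minus non-metastatic differences of the 20 probe sets are therefore given as a description, with their standard errors (SE). Counts of probe sets past a threshold are part of that description, and no p-value of a single one is given.

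The tumours were 13 untreated primary soft tissue sarcomas of dogs (Canis lupus familiaris), malignant tumours of connective tissue, biopsied and measured on a canine expression array made by Affymetrix. Of these, 5 were metastatic, and 8 were non-metastatic, with no spread for at least 1 year. The labels give no breed, age, sex, tumour subtype or dog for a sample, so the errors measure the spread between these samples. Values are log2 intensities as deposited, and a difference of 1 is a doubling. Because each probe set binds with its own strength, levels were compared between tumours and not between genes.

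Sample medians lay between 6.71 and 6.94. The poly-A spike-ins, foreign transcripts mixed into a sample's RNA ahead of labelling, gave signal at both transcript ends in 9 samples, namely all 5 metastatic tumours and non-metastatic replicates 5 to 8. They gave no signal in non-metastatic replicates 1, 3 and 4, and signal mainly at the 3′ end in non-metastatic replicate 2. The groups can be compared at 1 spike-in state only within those 9 samples, so each difference is also given there. In the 3 samples without spike-in, its probe sets read between 2.63 and 7.16. This is the size of value seen without a target, and a value up to 7.16 is not told apart from it. The ACTB 3′ minus 5′ value, which can rise with RNA degradation, was 1.96 ± 0.59 (SD, n = 5) in metastatic and 1.47 ± 0.92 (SD, n = 8) in non-metastatic tumours (two-sided exact permutation p = 0.317). It was 0.39 to 0.88 in the 3 samples without spike-in signal and 1.23 to 2.87 in the 9 with it at both ends. In non-metastatic replicate 2 it was 3.14, and the spike-ins themselves differed by 3.54 between the ends. RNA degradation and spike-in state cannot be told apart in this value, and its p-value does not show equal RNA quality. The 9 fibroblast and mesenchymal markers looked up as a check of the tissue, among them COL1A1 and VIM, had mean levels of 11.53 to 12.22 in metastatic and 11.31 to 12.25 in non-metastatic tumours.

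Of the 20 probe sets, 15 were lower in metastatic tumours, and the median difference was -0.27, against 0.05 over all 42924 probe sets tested. In the limma fit across all probe sets, 6 of the 20 were past an adjusted p of 0.05, all of them lower, beside 4.90% of all probe sets past it in either direction and 3.34% lower. These 6 were both probe sets of ITIH5, 2 of 3 of HYAL1, and the single ones of TNFAIP6 and HAS2. The 3 probe sets at which every metastatic tumour lay below every non-metastatic one were both of ITIH5 and 1 of HYAL1, beside 1.45% of all probe sets. The genes were chosen with this contrast known, so nothing is read from these counts. Within the 9 samples with spike-in signal, 4 of the 20 were past the threshold, beside 2.78% of all probe sets. They were those of ITIH5, 1 of HYAL1 and that of HAS2. That count was 0 without non-metastatic replicate 6 or 8, where 7 had an unadjusted p under 0.05 in limma. Over all 13 samples, 10182 of the 42924 probe sets had an unadjusted p under 0.05. The count within the 9 samples was 1 without non-metastatic replicate 5. It was 2 without metastatic replicate 1 or 5 or non-metastatic replicate 7. The count over 13 samples was 3 when metastatic replicate 1, 2, 4 or 5 or non-metastatic replicate 1, 3 or 8 was left out. It was 4 to 6 without any other single sample. In these 13 fits, both ITIH5 probe sets and 1 of HYAL1 stayed past the threshold every time. TNFAIP6 stayed past it in 5 of the 13, the other called HYAL1 probe set in 3 and HAS2 in 1. These fits reuse the values that were known when the genes were chosen. They describe the dependence on single samples and are no separate support.

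**Figure D1:**
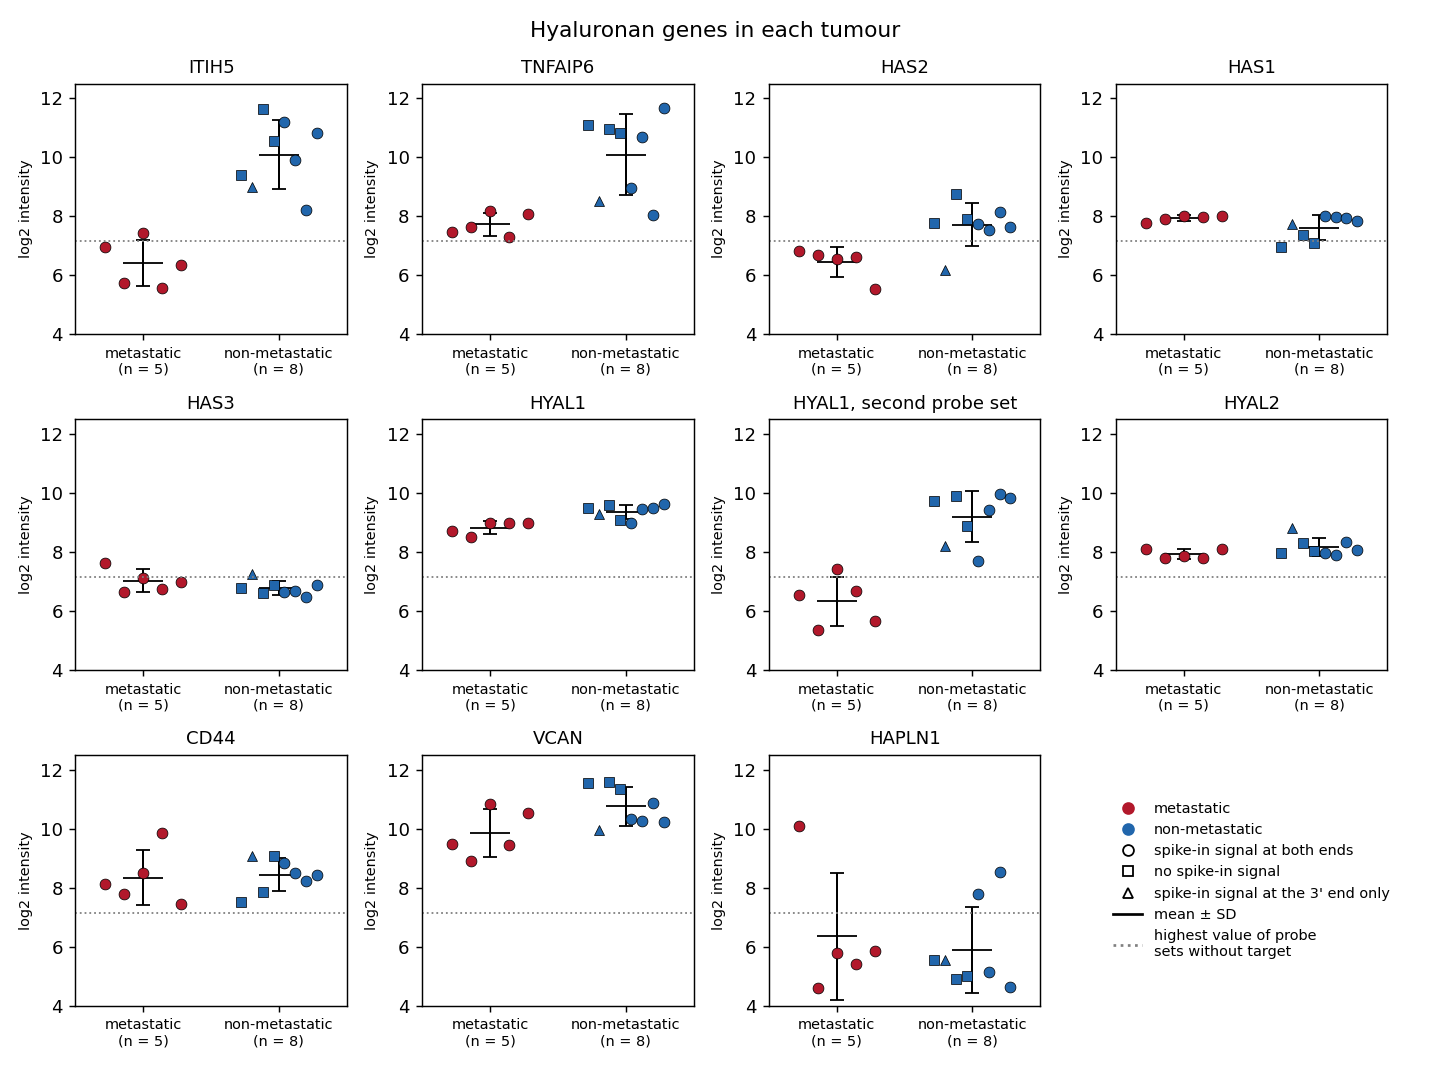
Log2 intensity (vertical axes) of each gene at its probe set of highest mean, and of HYAL1 also at its second probe set, in 5 metastatic (red) and 8 non-metastatic (blue) tumours. Symbols give the spike-in state, black bars the mean ± SD, and the dotted line the 7.16 that probe sets without target reached. ITIH5 and the second probe set of HYAL1 have no metastatic value at or above the lowest non-metastatic value.

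ITIH5, a secreted member of the inter-alpha-trypsin inhibitor heavy chain family, had the largest difference of the 20 probe sets. It read 6.94, 5.75, 7.44, 5.57 and 6.34 in metastatic replicates 1 to 5, against a lowest value of 8.21, a median of 10.23 and a highest of 11.64 in non-metastatic tumours. The groups did not overlap, and 0.77 separated the highest metastatic from the lowest non-metastatic tumour. The means were 6.41 ± 0.79 (SD, n = 5) and 10.09 ± 1.18 (SD, n = 8). The difference was -3.68 ± 0.53 (SE), or 12.9-fold lower in metastatic tumours, and -3.63 ± 0.62 within the 9 samples with spike-in signal. Since 4 of the 5 metastatic values lay within the range read without a target, the size of the difference is not exact. The other ITIH5 probe set gave -2.80 ± 0.48 (SE), with metastatic values of 6.32 to 7.38 and non-metastatic values of 7.79 to 11.20. With any single sample left out, the difference at the brighter probe set lay between -3.95 and -3.46. In tumour tissue, fewer cells that make a transcript and less of it per cell cannot be told apart.

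Non-metastatic tumours differed widely among themselves in ITIH5. Their range of 3.43 is 10.8-fold on the linear scale, with replicate 3 at the top and replicates 7 and 2 at the bottom. Non-metastatic tumours with spike-in signal at both ends averaged 10.04, and those without it averaged 10.53. Across all 13 samples, after each group mean was subtracted, the named genes most like ITIH5 were MSRA (Pearson r = 0.888), PI16 (r = 0.872) and CLPX (r = 0.855), out of 9304 candidates. Here and for the other genes, the r named were picked as the highest of many over few samples and were not tested. MSRA repairs oxidised methionine, PI16 is a peptidase inhibitor that marks fibroblasts around vessels, and CLPX unfolds proteins in mitochondria. PI16 averaged 7.35 in metastatic and 9.71 in non-metastatic tumours, a difference of -2.36. MSRA differed by -0.54 and CLPX by -0.03.

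TNFAIP6 encodes TSG-6, the secreted enzyme that transfers heavy chains of inter-alpha-inhibitor onto hyaluronan. It read 7.46, 7.62, 8.17, 7.28 and 8.08 in metastatic replicates 1 to 5, against a lowest value of 8.03, a median of 10.75 and a highest of 11.68 in non-metastatic tumours. The groups overlapped through non-metastatic replicate 7, which lay below metastatic replicates 3 and 5, while the other non-metastatic tumours lay above every metastatic one. The metastatic tumours lay within 0.89 of each other and the non-metastatic tumours within 3.65, or 12.6-fold. The means were 7.72 ± 0.39 (SD, n = 5) and 10.09 ± 1.37 (SD, n = 8), a difference of -2.37 ± 0.57 (SE).

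In TNFAIP6, non-metastatic replicates 1, 3, 4, 6 and 8 lay between 10.70 and 11.68, and non-metastatic replicates 2, 5 and 7 lay between 8.03 and 8.96. The 3 tumours without spike-in signal were all among the higher ones, at 10.81 to 11.09. Within the 9 samples with spike-in signal the difference was -2.12 ± 0.66 (SE). Genes most like it within groups were TLE6 (r = 0.887), CA15 (r = 0.871) and the dipeptidase DPEP1 (r = 0.870), over 13 samples. DPEP1 averaged 7.15 in metastatic and 9.12 in non-metastatic tumours.

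The hyaluronan synthases did not move together. HAS2, the synthase that makes long chains in mesenchymal tissue, read 6.81, 6.67, 6.55, 6.60 and 5.54 in metastatic replicates 1 to 5. In non-metastatic tumours its lowest value was 6.18, its median 7.76 and its highest 8.77. Only non-metastatic replicate 2, at 6.18, overlapped the metastatic range, and the other 7 lay above it. That tumour also had the highest ACTB 3′ minus 5′ value, 3.14, and was the one with spike-in signal mainly at the 3′ end. The means were 6.43 ± 0.51 (SD, n = 5) and 7.71 ± 0.73 (SD, n = 8), and the difference was -1.28 ± 0.34 (SE) over all samples and -1.34 ± 0.26 within the 9 with spike-in signal. All 5 metastatic values lay within the range read without a target. With the ACTB value as a covariate the difference was -1.01. The genes most like HAS2 within groups over 13 samples were ATL3, an atlastin that shapes the endoplasmic reticulum (r = 0.951), LZIC (r = 0.922) and the protease MBTPS1 (r = 0.917).

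HAS1 read 7.76 to 8.01 in metastatic tumours and 6.95 to 8.02 in non-metastatic tumours, a difference of 0.32 ± 0.19 (SE). The tumours apart from the rest were those without spike-in signal. The 3 non-metastatic tumours without spike-in signal read 6.95 to 7.35, while the 4 with signal at both ends read 7.84 to 8.02. Within the 9 samples with spike-in signal the difference was -0.01 ± 0.09 (SE). The genes most like HAS1 over 13 samples, SLC25A23 (r = 0.973), AGTRAP (r = 0.962) and CHPF (r = 0.962), had r of 0.517, 0.350 and 0.357 over those 9.

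HAS3, which makes shorter chains, had 2 probe sets. The brighter one read 6.64 to 7.64 in metastatic and 6.48 to 7.27 in non-metastatic tumours, with a difference of 0.25 ± 0.17 (SE) and a 95% interval of -0.13 to 0.62. The other differed by 0.10 ± 0.12 (SE). Without metastatic replicate 1, the difference at the brighter probe set was 0.09. Both groups averaged below 7.16 at both probe sets, and only metastatic replicate 1, at 7.64, and non-metastatic replicate 2, at 7.27, lay above that limit. The 2 probe sets did not follow each other in the 8 non-metastatic tumours (r = -0.043). The genes most like the brighter one over 13 samples were GRIFIN (r = 0.885), SLC25A6 (r = 0.868) and MSX1 (r = 0.852).

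HYAL1 and HYAL2 encode the hyaluronidases of most tissues, a lysosomal one and one tethered to the cell surface. The genes are direct neighbours, with HYAL3 next to HYAL1, in the RefSeq gene order of assembly UU_Cfam_GSD_1.0. A probe set of HYAL1 with the ending s_at, called its second here, had the largest HYAL1 difference and was picked with that known. It read 6.56, 5.35, 7.42, 6.68 and 5.67 in metastatic replicates 1 to 5. In non-metastatic tumours its lowest value was 7.69, its median 9.57 and its highest 9.96. The groups were apart by 0.27, between metastatic replicate 3 and non-metastatic replicate 5. The means were 6.34 ± 0.83 (SD, n = 5) and 9.20 ± 0.86 (SD, n = 8), a difference of -2.87 ± 0.43 (SE), or 7.30-fold lower. Since 4 of the 5 metastatic values lay within the range read without a target, this size is not exact either. It was -2.89 ± 0.55 within the 9 samples with spike-in signal.

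The 3 probe sets of HYAL1 disagreed in size. The one of highest mean averaged 8.83 ± 0.22 (SD, n = 5) in metastatic and 9.38 ± 0.24 (SD, n = 8) in non-metastatic tumours, a difference of -0.54 ± 0.14 (SE). It ranked non-metastatic tumours much as the second probe set did (r = 0.887 over 8), with replicate 5 lowest in both, but over a range of 0.64 in place of 2.27. The third differed by -0.09 ± 0.12 (SE), with metastatic values of 8.09 to 8.28 and non-metastatic values of 7.99 to 8.56. The mean of the 3 gave a difference of -1.17. The ending s_at marks probe sets whose probes can match more than one transcript, and which transcripts each of the 3 reads is not analysed here. Most like HYAL1 at its brightest probe set were KRCC1 (r = 0.809), PPFIA1 (r = 0.796) and CCDC78 (r = 0.771), over 13 samples.

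HYAL2, which starts the breakdown of long chains at the cell surface, differed little at any of its 4 probe sets. At the brightest it read 8.12, 7.80, 7.87, 7.79 and 8.11 in metastatic replicates 1 to 5, against a lowest value of 7.91, a median of 8.05 and a highest of 8.82 in non-metastatic tumours. The difference was -0.25 ± 0.16 (SE), with a 95% interval of -0.58 to 0.09. The other 3 differed by -0.42, -0.30 and -0.10. At those of -0.42 and -0.30, metastatic values of 6.61 to 7.24 and 6.66 to 7.21 lay partly within the range read without a target. Non-metastatic replicate 2 was the highest tumour at the brightest probe set. The 4 differences lay between -0.21 and -0.07 within the 9 samples with spike-in signal. The neighbour HYAL3 differed by 0.21 ± 0.12 (SE) at its chosen probe set (limma adjusted p = 0.294) and by -0.25 at its other one. Most like HYAL2 over 13 samples were METTL3 (r = 0.904), UPF1 (r = 0.887) and LIMK2 (r = 0.878). Over the 9 samples with spike-in signal these r were 0.775, 0.611 and 0.801.

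**Figure D2:**
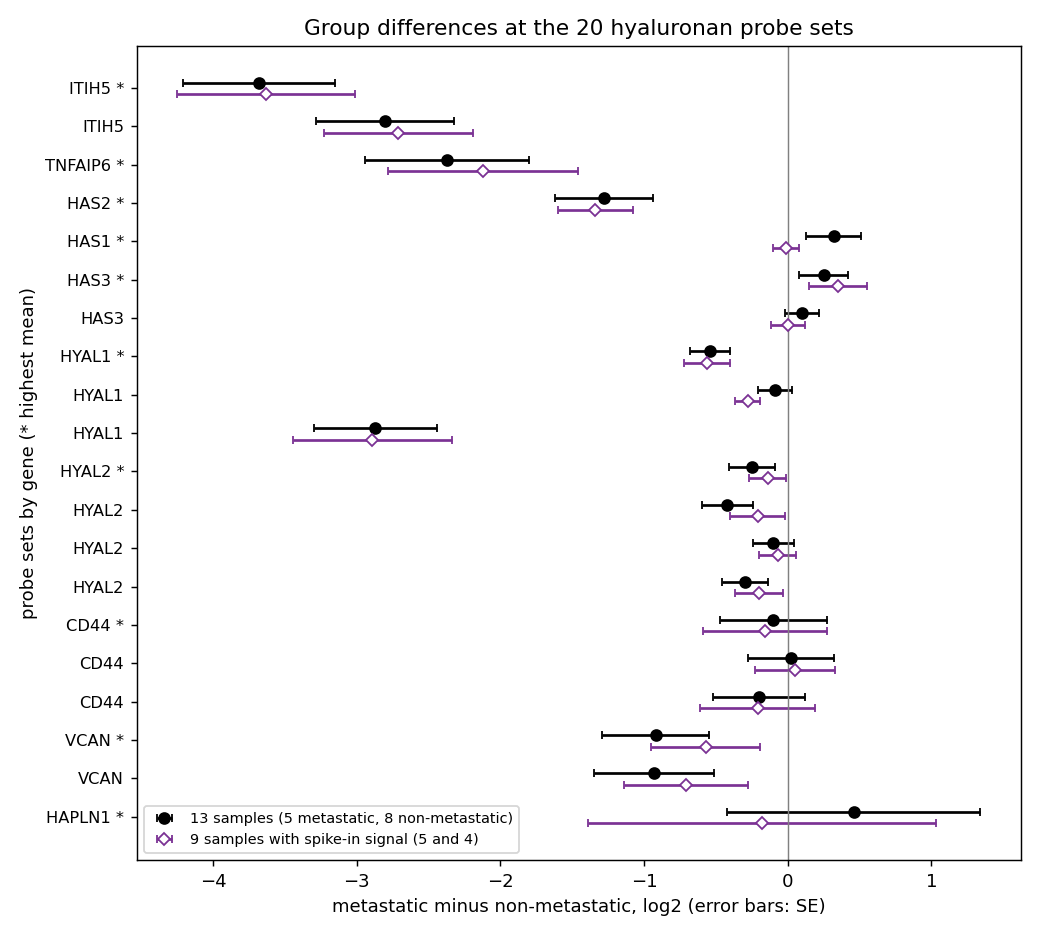
Metastatic minus non-metastatic difference in log2 intensity (horizontal axis, error bars SE) at each of the 20 probe sets (rows, * the probe set of highest mean of a gene), over 13 samples (black) and over the 9 samples with spike-in signal at both ends (purple). ITIH5, TNFAIP6, HAS2 and 1 probe set of HYAL1 lie below -1 in both, and HAS1 lies at 0.32 over 13 samples and -0.01 over 9.

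CD44, the main hyaluronan receptor, had no shift between the groups larger than its spread. At its brightest probe set it read 8.14, 7.81, 8.49, 9.87 and 7.44 in metastatic replicates 1 to 5, against a lowest value of 7.51, a median of 8.48 and a highest of 9.09 in non-metastatic tumours. The metastatic group held both the highest tumour, replicate 4, and the lowest, replicate 5, a range of 2.43 or 5.39-fold. The difference was -0.10 ± 0.37 (SE), with a 95% interval of -0.89 to 0.70. It was 0.13 without metastatic replicate 5, 0.04 without metastatic replicate 2 and -0.48 without metastatic replicate 4. The other 2 probe sets differed by 0.02 and -0.20. At that of 0.02, the metastatic values of 6.10 to 7.03 lay within the range read without a target. The genes most like CD44 within groups over 13 samples were CD59, a membrane inhibitor of complement (r = 0.887), RBKS (r = 0.880) and the transcription factor USF2 (r = 0.861).

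VCAN, a large proteoglycan that binds hyaluronan, read 9.50, 8.92, 10.85, 9.47 and 10.54 in metastatic replicates 1 to 5. In non-metastatic tumours its lowest value was 9.96, its median 10.61 and its highest 11.60. Metastatic replicates 3 and 5 lay inside the non-metastatic range and the other 3 below it. The difference was -0.92 ± 0.37 (SE), with a 95% interval of -1.71 to -0.12, and it was not past the threshold over all probe sets. The non-metastatic tumours without spike-in signal read 11.36 to 11.60 and those with it at both ends read 10.22 to 10.88, and within the 9 samples the difference was -0.57 ± 0.38 (SE). The ACTB 3′ minus 5′ value was 0.39 to 0.88 in those 3 tumours and 1.23 to 2.24 in those 4, and with it as a covariate the difference was -0.59. The other probe set gave -0.54 with that covariate. Without it, that probe set gave -0.93 ± 0.42 (SE) and followed the first in the 8 non-metastatic tumours (r = 0.961). Most like VCAN over 13 samples were GMDS (r = 0.875), PPHLN1 (r = 0.869) and WDR11 (r = 0.868).

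HAPLN1, the link protein that locks proteoglycans such as VCAN onto hyaluronan, lies next to VCAN in the RefSeq gene order but was distributed differently. It read 10.10 in metastatic replicate 1 and 4.60, 5.79, 5.43 and 5.86 in metastatic replicates 2 to 5. In non-metastatic tumours it read 8.55 in replicate 7 and 7.81 in replicate 5, and between 4.64 and 5.57 in the other 6. These 3 tumours were the ones above the range read without a target, so how far the others lay below them is not exact. The difference of 0.46 ± 0.88 (SE) became -0.48 without metastatic replicate 1 and -0.18 within the 9 samples with spike-in signal. HAPLN1 is abundant in cartilage. The 6 cartilage markers averaged 6.44 in metastatic replicate 1, within the 6.40 to 6.60 of the metastatic group. Among metastatic tumours, replicate 1 was the highest in COL2A1 (6.44) and COL9A1 (7.78), the lowest in COL11A2 (7.90), and between the others in MATN1, CNMD and SOX9. COL2A1, the collagen of cartilage, lay below 7.16 in every tumour. Their part in the result was not tested. Most like HAPLN1 over 13 samples were NUP35 (r = 0.866), NMNAT1 (r = 0.843) and SPDL1 (r = 0.837).

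**Figure D3:**
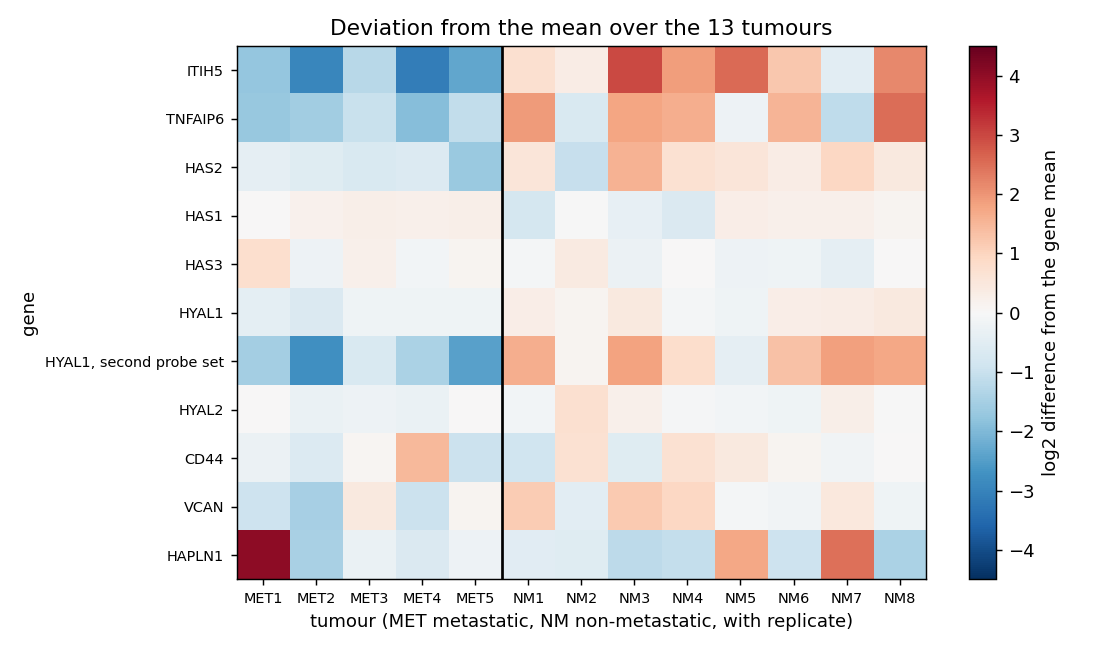
Log2 difference of each tumour (columns) from the gene mean over the 13 tumours, for the 10 genes and the second probe set of HYAL1 (rows), with red above and blue below the mean. The black line parts the 5 metastatic (left) from the 8 non-metastatic tumours (right). The 5 metastatic tumours are blue in ITIH5, TNFAIP6, HAS2 and HYAL1, and HAPLN1 is dark red in metastatic replicate 1 alone.

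In the non-metastatic group, replicate 7 was the lowest in ITIH5 and TNFAIP6 and the highest in the second probe set of HYAL1. Replicate 2 was the lowest in HAS2 and VCAN and the highest in HAS3, HYAL2 and CD44. That sample had spike-in signal mainly at the 3′ end.

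Whether genes followed each other was tested within the 8 non-metastatic tumours, a spread that enters the SE of the group difference but not its size. These 8 tumours differed in spike-in state, which the permutation test did not take into account. Among 54 pairs, none passed an exact permutation test after Benjamini-Hochberg adjustment, while 5 had an unadjusted p under 0.05 for Pearson's r. HAS2 and VCAN had r = 0.717 (exact p = 0.0109, adjusted p = 0.344) and Spearman's rho = 0.881 (exact p = 0.00724, adjusted p = 0.391). Without non-metastatic replicates 2 and 3 their r was 0.496. TNFAIP6 and HAPLN1 ran in opposite directions, with r = -0.811 (exact p = 0.0155, adjusted p = 0.344) and rho = -0.714 (exact p = 0.0576, adjusted p = 0.758). Without the 2 tumours farthest from the TNFAIP6 median, replicates 2 and 7, r was -0.942. Of the 8 HAPLN1 values, 6 lay within the range read without a target. ITIH5 and TNFAIP6, the decorating protein pair, had r = 0.566 (exact p = 0.142, adjusted p = 0.718) and rho = 0.524 (exact p = 0.197, adjusted p = 0.758), and r was 0.201 without replicates 3 and 7. The pairs were also recomputed within the 9 samples with spike-in signal, after subtraction of the group means. There r was -0.358 for HAS2 and VCAN, -0.636 for TNFAIP6 and HAPLN1, and 0.526 for ITIH5 and TNFAIP6. These r include the 5 metastatic tumours, so they are no repeat of the test within the non-metastatic group. In non-metastatic replicates 5 to 8, HAS2 read 7.75, 7.55, 8.15 and 7.65, and VCAN read 10.34, 10.26, 10.88 and 10.22. The recomputation was added after the data were seen.

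The rest of the pathway was read from a list of 41 further genes, of which 33 had a probe set named for them. In the limma fit 1 of the 33 rose and 0 fell at the probe set of highest mean, beside 5.35% of all named genes called in either direction. An unadjusted p under 0.05 was found for 6 of the 33, beside 3616 of all 15115 named genes. The median difference was 0.05, the same as that of all named genes. Within the 9 samples with spike-in signal 1 of the 33 was called, a different gene, beside 2.82%.

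The gene that rose was HMMR, a hyaluronan-binding protein that also sits on the mitotic spindle of dividing cells. It read 7.18, 7.42, 6.57, 6.79 and 6.87 in metastatic replicates 1 to 5, against a lowest value of 5.63, a median of 6.21 and a highest of 6.43 in non-metastatic tumours. The groups did not overlap, and the difference was 0.81 ± 0.17 (SE, limma adjusted p = 0.0198). Both group means lay below 7.16, and the other HMMR probe set differed by -0.22 (adjusted p = 0.493). The call was lost without metastatic replicate 1 (0.76, adjusted p = 0.0597) and within the 9 samples with spike-in signal (0.60, adjusted p = 0.0943).

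Among the versican-cleaving proteases, ADAMTS5 had the largest difference and did not pass over 13 samples. It read 9.45, 9.46, 9.05, 6.95 and 8.47 in metastatic replicates 1 to 5, against a lowest value of 7.75, a median of 10.69 and a highest of 11.61 in non-metastatic tumours. The lowest was again non-metastatic replicate 2, and the other 7 lay above every metastatic tumour. The difference was -1.75 ± 0.60 (SE, limma adjusted p = 0.103). It was -2.13 without non-metastatic replicate 2 (adjusted p = 0.0107) and was past the threshold within the 9 samples with spike-in signal (-2.46 ± 0.51, adjusted p = 0.0402). ADAMTS4, ADAMTS9 and ADAMTS20 differed by 0.05, 0.54 and 0.18 without passing.

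Genes that make the nucleotide sugar precursors showed no called change at their chosen probe sets, with 6 of 7 differences negative and a median of -0.50. UAP1, which makes UDP-N-acetylglucosamine, differed by -0.64 ± 0.23 (SE, limma adjusted p = 0.124). Another of its 4 probe sets was past the threshold, at -0.85 (adjusted p = 0.0399), with means of 9.26 in metastatic and 10.11 in non-metastatic tumours. UAP1 was chosen to be named after its values were seen. UGDH, which makes UDP-glucuronate, differed by 0.04 ± 0.26 (SE, adjusted p = 0.944). GFPT2, at the entry of the hexosamine pathway, differed by -0.68 ± 0.61 (SE, adjusted p = 0.503). It was -0.07 without metastatic replicate 2 and -1.38 within the 9 samples with spike-in signal. GFPT2 spanned 3.53 to 7.29 in metastatic and 5.22 to 8.03 in non-metastatic tumours.

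The partners of ITIH5 and TNFAIP6 showed no called change at their chosen probe sets. ITIH2, the coding gene next to ITIH5 in the RefSeq order, differed by -0.24 ± 0.18 (SE, limma adjusted p = 0.418) at its chosen probe set. That probe set read 5.02 to 6.03 across the tumours, inside the range read without a target. It therefore cannot show whether ITIH2 followed ITIH5. Of the other 3 ITIH2 probe sets, 1 passed at -0.76 (adjusted p = 0.0405). Its means were 2.95 in metastatic and 3.72 in non-metastatic tumours, also inside that range. ITIH1 and ITIH3 differed by 0.20 and 0.12, and AMBP, which encodes bikunin, by 0.11 (adjusted p = 0.595). The link protein HAPLN3 differed by 0.10 ± 0.16 (SE, adjusted p = 0.727).

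Other enzymes and receptors also lay under the threshold. CEMIP, which promotes hyaluronan depolymerisation, differed by 0.47 ± 0.26 (SE, limma adjusted p = 0.289). It read 4.88 to 6.50 across the tumours, inside the range read without a target. The surface protein CEMIP2 differed by -0.41 ± 0.36 (SE, adjusted p = 0.495). LYVE1, the hyaluronan receptor of lymphatic vessels and some macrophages, differed by -1.05 ± 0.60 (SE, adjusted p = 0.295). LYVE1 read 3.50 and 4.39 in metastatic replicates 1 and 2 and 6.53 to 6.67 in the other metastatic tumours. All of these metastatic values lay inside the range read without a target. STAB1, a scavenger receptor of macrophages named after its values were seen, differed by -0.70 ± 0.43 (SE, adjusted p = 0.327). The list of 8 macrophage markers had a median difference of -0.18 with 0 called in limma and 0 at an unadjusted p under 0.05.

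**Figure D4:**
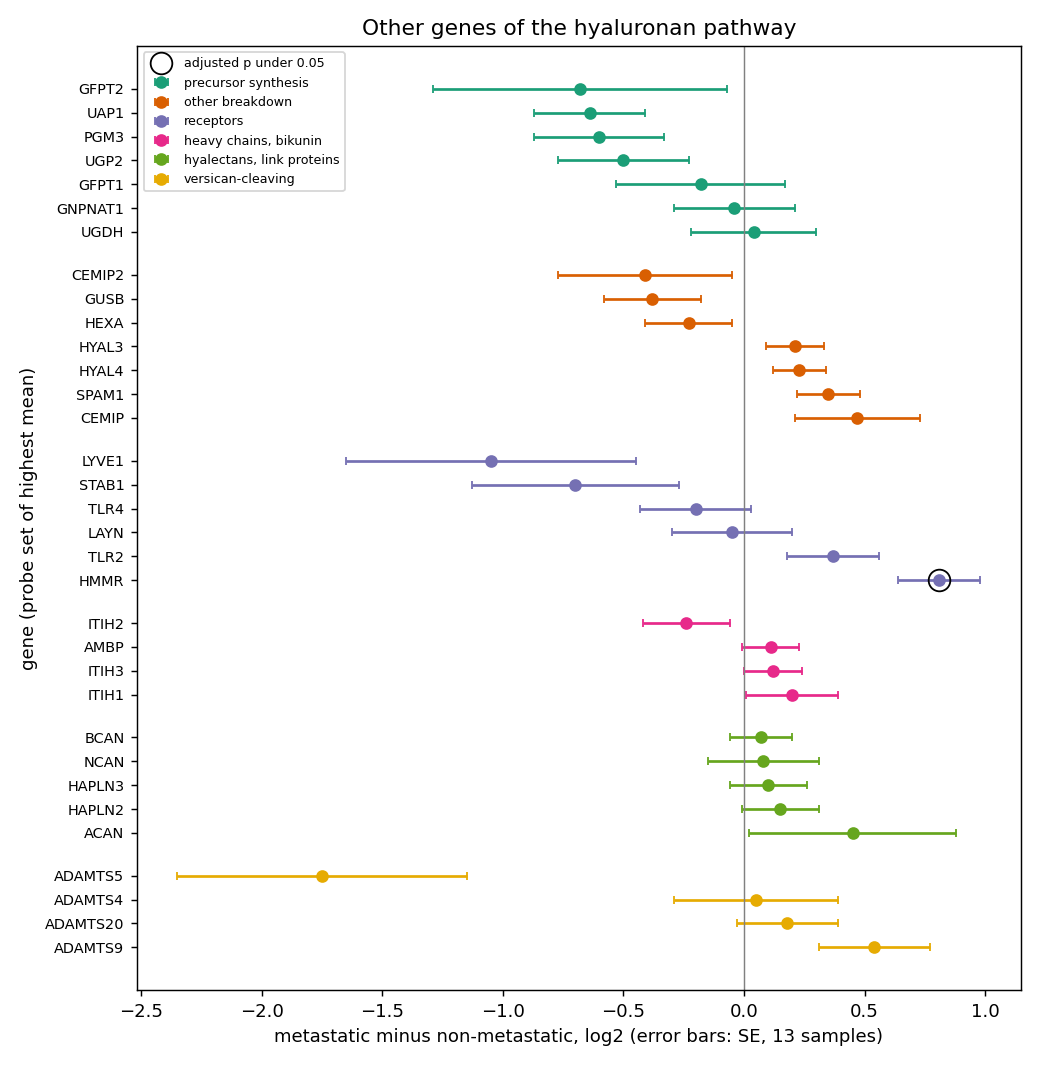
Metastatic minus non-metastatic difference in log2 intensity (horizontal axis, error bars SE, 13 samples) of the 33 further pathway genes (rows) at their probe set of highest mean, coloured by role. The circle marks HMMR, at 0.81, the only gene past an adjusted p of 0.05, and ADAMTS5 lies lowest, at -1.75.

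Markers of other cell types were compared as the setting of these differences. Among the 9 lists, 1 gene was called at its chosen probe set, beside 5.35% of all named genes called in either direction. It was the surface protein THY1 of fibroblasts, which fell by 1.41 on the log2 scale (limma adjusted p = 0.0425). Its call was lost within the 9 samples with spike-in signal (-1.28, adjusted p = 0.133) and held in 3 of the 13 fits without 1 sample. THY1 was chosen to be named after its value was seen. The 9 fibroblast and mesenchymal markers had a median difference of -0.06. The 6 skeletal muscle markers were the most uneven, at 6.30 to 8.97 in metastatic and 5.83 to 6.97 in non-metastatic tumours. The 8.97 was in metastatic replicate 5, the tumour lowest in HAS2. All 6 were higher in metastatic tumours, with a median difference of 0.72, and 0.56 within the 9 samples with spike-in signal. Of these 6, 0 were called and 2 had an unadjusted p under 0.05 in limma. Such an unadjusted p was found for 3616 of all 15115 named genes. Endothelial markers had mean levels of 7.65 to 8.72 in metastatic and 7.30 to 9.50 in non-metastatic tumours, with 9.50 in non-metastatic replicate 2. The part of these cell types in the hyaluronan gene differences was not tested.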

How the data were processed

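Expression in 13 canine sarcomas was measured on 1 Affymetrix array a tumour, and the groups are those of the labels. The deposited values were taken as log2 intensities from their range of 0 to 14.33 and their sample medians of 6.71 to 6.94. How the authors processed the scans, including background correction, normalization and any centring, is not given in the sources used here. The values were used as deposited, including 105 zeros in 71 probe sets. The 10 genes, the pathway list and the marker lists were chosen with earlier results of these data known.

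Of 43035 probe sets, 111 array controls were left out and 42924 were tested. The platform annotation gave 1 gene symbol to 29264 probe sets, several to 439 and none to 13332, and the single symbols named 15115 genes. A gene was described at its probe set of highest mean over the 13 samples. As an exception, HYAL1 was also described, drawn and paired at its second probe set. That probe set has the largest HYAL1 difference and was picked with the differences known. Gene identifiers were looked up in the RefSeq table of assembly UU_Cfam_GSD_1.0, which held those of 27690 probe sets, and no symbol changed. ITIH5 was matched there by symbol.

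The metastatic minus non-metastatic difference was fitted for all probe sets with limma 3.58.1 in R 4.3.3, with Benjamini-Hochberg adjustment and a threshold of 0.05, and the code was tested on simulated data. Python 3.11.15 with numpy 2.4.6, pandas 2.3.3, scipy 1.17.1 and matplotlib 3.10.9 made the other values. The spike-in state of a sample was set from the poly-A controls, with a minimum of 6 for the 3′ end and a difference between the ends of at most 2. Likeness was Pearson's r after subtraction of each group mean, over named genes at or above the median level, and the 3 highest were named. All 10 genes were named, and of the pathway list each gene past the threshold and a preset selection of genes. The alternatives were quantile normalization, a level filter, zeros as missing, the mean of the probe sets of a gene, another prior, the spike-in state, the ACTB value, the replicate block and leaving out each sample. The number of arrays limits the precision.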

Additional observations from a re-analysis of the deposited data

Results flagged for a closer look

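In a group of 4 to 10 tumours, a tumour was singled out when its gap to the nearest other tumour was large against the range of the group. This was the case in 4 of 64 checks, and chance alone singles out about 1 in 20. HAS2 read 5.54 in metastatic replicate 5, where the other metastatic tumours read 6.55 to 6.81. HAS2 read 6.18 in non-metastatic replicate 2, where the other non-metastatic tumours read 7.55 to 8.77. HAPLN1 read 10.10 in metastatic replicate 1, against 4.60 to 5.86 in the other metastatic tumours. CEMIP2 read 9.37 in metastatic replicate 4, against 6.85 to 7.45 in the other metastatic tumours.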

How the results depend on the processing

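The 6 hyaluronan probe sets past the threshold were 3 with the ACTB value as a covariate, 3 with the replicate block and 1, of ITIH5, without the samples without spike-in signal, and 3 to 6 in the fits without 1 sample. They were 4 to 6 under the other alternatives. Replicate numbers are shared across the groups, and the deviations of same-numbered tumours correlated by -0.00857 to 0.0782. The labels do not say whether same-numbered tumours share more than a number, and these correlations cannot decide it. The replicate block took the calls over all probe sets to 733 in place of 2104. Within the 9 samples with spike-in signal, an alternative chosen after seeing the data, the count of 4 was 0 to 3 without 1 sample. It was 0 without non-metastatic replicate 6 or 8, where limma had 7 at an unadjusted p under 0.05. Over all 13 samples, 10182 of the 42924 probe sets had such a p.

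The pathway count of 1 was 0 with the mean of all probe sets of a gene, 0 of 20 genes with the level filter, 0 with the replicate block and 0 without the samples without spike-in signal, where limma had 5, 3, 3 and 6 genes at an unadjusted p under 0.05. It was 2 with the spike-in state as a block, both lower (ADAMTS5 at -2.46 and UAP1 at -0.97), and 0 to 2 without 1 sample. It was 0 without metastatic replicate 1 and 2, HMMR and ADAMTS5, without non-metastatic replicate 2. Differences near 0 changed sign. AMBP was -0.01 without the samples without spike-in signal. HAPLN3 was -0.02 within the 9 samples, -0.02 with the spike-in block and -0.06 without the samples without spike-in signal, and UGDH was -0.21, -0.21 and -0.12 there and -0.12 to 0.21 without 1 sample. The causes were not tested. Values up to 7.16 are not told apart from probe sets without a target. This limits the size of the differences of ITIH5, HAS2, HAS3, HYAL1 and HAPLN1. It also limits those of HYAL2 at the probe sets that differed by -0.42 and -0.30 and of CD44 at the one that differed by 0.02. The same limit holds for the pathway genes HMMR, CEMIP, LYVE1, ITIH2 and GFPT2.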
